A study of Mus musculus with 18 samples.

Results

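The MYC and ribosome biogenesis genes described here are 37 genes that encode the transcription factor MYC and proteins that make the ribosome. They were chosen by name from their known function, with earlier results of these data known. Each was read on Affymetrix mouse arrays through its brightest probe set, the 1 with the highest mean log2 value over all arrays among those annotated to that gene alone. Of the 37 genes, 36 had such a probe set, out of 18194 genes with 1 in all, and all 36 passed the filter on low values that kept 13770 genes. Mrto4, a large subunit assembly factor, had only a probe set shared with another gene symbol and was not read.

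The 18 arrays carry RNA of CD8 T cells sorted from the spleen of F5 mice, labelled C57Bl/6, which carry a transgenic T cell receptor, so that the cells of every group share that receptor. Memory cells, called TIM in the labels, came from F5 mice given 2 immunisations with the NP68 peptide and were taken at day 45, and naive cells came from F5 mice with no immunisation named. Cells were read directly ex vivo (2 naive and 4 memory arrays) or after 20 hours of culture. Naive cells were cultured with IL-7 at 10 ng/mL or with IL-7 and IL-4 at 20 ng/mL, and memory cells with IL-7, with IL-4, with both or in medium alone, with 2 arrays each. No naive cells in medium or in IL-4 alone are among these arrays. Per the series' design text, 2 naive and 4 memory populations were sorted, and both naive populations and 2 of the memory populations went into culture. The field for the cell type gives the naive arrays a name that also holds the word memory, and their titles, which were followed here, call them naive. Only the ex vivo arrays are titled biological replicates, while cultured arrays are titled replicates, so the p-values reflect the spread among these arrays alone, which may be partly technical.

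MYC binds DNA with its partner MAX, mostly at the E-box CACGTG, and raises the transcription of many genes for ribosome assembly, metabolism and growth. Ribosomes are built in the nucleolus: RNA polymerase I transcribes the ribosomal RNA precursor, guide RNA particles (snoRNPs) modify it, and large sets of assembly factors fold, cleave and export the small and large subunits. In T cells MYC and this machinery are known to rise when a resting cell is activated and grows. IL-7 is known to keep resting naive and memory T cells alive, and IL-4 acts on the same cells through a receptor that shares a chain with that of IL-7.

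The promoters of the genes were searched for CACGTG because it is the site MYC is best known to bind. The motif reads the same on both strands. RefSeq promoter entries (build GRCm38.p6, 250 bases before to 50 after each transcription start) were given for 30 of the 36 genes, and 8 of these (26.7%) held CACGTG at least once. Of all 27025 genes with an entry, 8.09% held it, and of the 11073 tested genes with an entry, 11.1% did. Within a window of 150 bases before to 50 after the start, the shares were 26.7%, 6.19% and 8.65%. This is a count of letters and not a measure of binding. The sites are shown with 12 bases on either side where the entry reaches that far, written 5′ to 3′ on the gene's strand with the E-box in capitals.
Rrn3, a factor that recruits RNA polymerase I, at chr16:13780472-13780501: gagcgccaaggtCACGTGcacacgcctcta
Rrn3, the second site, at chr16:13780639-13780668: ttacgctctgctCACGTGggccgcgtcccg
Utp20, a small subunit factor, at chr10:88826765-88826789: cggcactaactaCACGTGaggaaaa
Wdr43, a small subunit factor, at chr17:71616220-71616249: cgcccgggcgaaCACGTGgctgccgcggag
Ltv1, a small subunit factor, at chr10:13193092-13193121: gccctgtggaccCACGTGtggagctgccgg
Tsr1, a small subunit factor, at chr11:74898092-74898121: tcacttggtgcaCACGTGgactgcagaatg
Nop2, a large subunit RNA methyltransferase, at chr6:125131811-125131840: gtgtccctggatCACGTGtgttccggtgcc
Pes1, a large subunit factor, at chr11:3963965-3963994: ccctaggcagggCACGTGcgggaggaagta
Nle1, a large subunit factor, at chr11:82908355-82908384: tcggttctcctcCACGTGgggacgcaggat
The genes of Ltv1, Nle1 and Utp20 lie on the minus strand and the others on the plus strand. With the start site as base 1, the first base of the motif lay 3 bases (Pes1), 18 (Wdr43), 24 (Nle1), 25 (Tsr1), 29 (Ltv1) and 38 (Utp20) after the start, 60 before it in Nop2, and 215 and 48 before it in Rrn3. In the cytokine cultures of memory cells Utp20, Ltv1 and Tsr1 were among the genes that fell in all 3 (values given with those comparisons), Wdr43, Nop2 and Nle1 fell with IL-7, and Rrn3 and Pes1 passed none of the tests. Genes whose entries hold no CACGTG, such as Bysl, Nop56 and Nop58, fell with IL-7 too. A link between the motif and a change was not tested.

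The 4 genes with the greatest changes in memory cells cultured with IL-7 were Wdr12, Bysl, Nop58 and Nop56, and the bases before their outermost start site, up to the first base of the annotated gene, hold no CACGTG. They are shown because these genes had the greatest changes in that comparison, with 250 bases for Wdr12 and Bysl, both on the minus strand, and 205 for Nop58 and Nop56, both on the plus strand.
Wdr12 (1 of 3 start sites in the RefSeq table), chr1:60098501-60098750: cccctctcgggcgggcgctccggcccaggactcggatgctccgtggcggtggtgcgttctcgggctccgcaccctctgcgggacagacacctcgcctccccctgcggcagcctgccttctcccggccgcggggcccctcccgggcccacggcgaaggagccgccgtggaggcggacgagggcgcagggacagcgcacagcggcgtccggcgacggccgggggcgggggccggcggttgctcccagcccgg
Bysl, chr17:47611493-47611742: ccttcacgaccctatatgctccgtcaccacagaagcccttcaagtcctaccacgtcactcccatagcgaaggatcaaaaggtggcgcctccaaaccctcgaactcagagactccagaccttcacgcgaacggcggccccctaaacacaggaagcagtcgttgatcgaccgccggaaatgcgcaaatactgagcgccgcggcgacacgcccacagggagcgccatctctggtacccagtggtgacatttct
Nop58, chr1:59684756-59684960: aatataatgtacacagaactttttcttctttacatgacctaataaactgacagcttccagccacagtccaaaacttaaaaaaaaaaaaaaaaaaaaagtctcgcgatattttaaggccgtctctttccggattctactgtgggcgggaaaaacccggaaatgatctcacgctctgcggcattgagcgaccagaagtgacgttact
Nop56, chr2:130274162-130274366: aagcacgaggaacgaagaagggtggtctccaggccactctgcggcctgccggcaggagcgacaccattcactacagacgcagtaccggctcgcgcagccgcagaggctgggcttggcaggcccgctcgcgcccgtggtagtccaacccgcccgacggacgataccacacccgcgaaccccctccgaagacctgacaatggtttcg

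One array went against its label. Over all genes tested, the second array of memory cells in medium (called medium array 2 from here) was closest to the second ex vivo memory array (r = 0.9954, against 0.9558 with the other array of its own group, as a description of these arrays). Over the 36 genes its root mean square difference on the log2 scale was 0.194 to ex vivo memory array 2 and 1.07 to medium array 1. Values that rest on it are therefore given with and without it. The naive arrays with both cytokines were also closer to a naive IL-7 array (r = 0.9776 for array 1 and 0.989 for array 2) than to each other (0.9753). Over the 36 genes array 2 of this culture differed by 0.333 and 0.381 from the naive IL-7 arrays and by 0.74 from array 1. In this culture array 1 lay below array 2 in several of the 36 genes, among them Nhp2 (10.71 and 12.75), Nip7 (8.87 and 10.47) and Utp20 (8.09 and 9.64). The 3′ minus 5′ difference of the Gapdh control probe sets, a sign of RNA quality, was 2.07 to 2.69 on the ex vivo arrays and 2.67 to 3.36 on the cultured arrays other than medium array 2, which had 2.35. That of the Actb control probe sets showed no such shift, at 1.95 to 2.07 ex vivo, 1.63 to 2.25 in culture and 1.87 on medium array 2. The median of the tested genes was 6.98 to 7.16 ex vivo and 7.16 to 7.45 in culture, and 6.95 on medium array 2. The part of these differences in the contrasts between culture and ex vivo was not tested.

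The 6 CD8 T cell markers averaged 11.28 to 11.62 on single arrays, and Cd8a lay at 12.14 to 13.10. Of the markers of other cells, group means of Cd79a of B cells were 3.91 to 4.95, of Lyz2 of macrophages 4.18 to 4.57, of Cd4 4.64 to 5.20 and of Ncr1 of NK cells 4.19 to 4.63. Other genes of the same lists had higher values, with Cd79b at 7.31 to 8.64, Zbtb7b of CD4 T cells at 6.26 to 7.20, Eomes, which CD8 T cells can also express, at 5.76 to 9.33 and Itga2b of platelets at 7.64 to 8.27. Red cell precursor markers moved with the groups: their mean, over Alas2 and Hba-a1, was 5.64 to 7.44 on ex vivo memory arrays, 5.20 to 6.71 on cultured memory arrays, 4.59 to 4.70 on ex vivo naive arrays and 3.78 to 4.22 on cultured naive arrays. Alas2 carried this, with a group mean of 9.04 in ex vivo memory and 5.84 in ex vivo naive cells. The part of these markers in the results on memory cells was not tested. In sorted bulk samples fewer cells of a type and less RNA per cell cannot be told apart.

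Across the 18 arrays the 36 genes formed a pattern set mostly by culture and cell type. The mean of their log2 values was 9.87 and 9.88 on the ex vivo naive arrays and 9.86 to 10.06 on the ex vivo memory arrays. It was 9.99 and 10.19 in naive cells with IL-7, and 9.59 and 9.97 with both cytokines. In memory cells it was 9.41 and 9.23 with IL-7, 9.50 and 9.39 with IL-4, 9.42 and 9.40 with both, and 9.28 and 9.94 in medium. The cultured memory arrays thus lay below all ex vivo arrays, except medium array 2. Wdr12 was higher on the cultured arrays than ex vivo except on medium array 2, and Myc was higher in the naive cultures and in the memory cultures with IL-4.

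**Figure D1:**
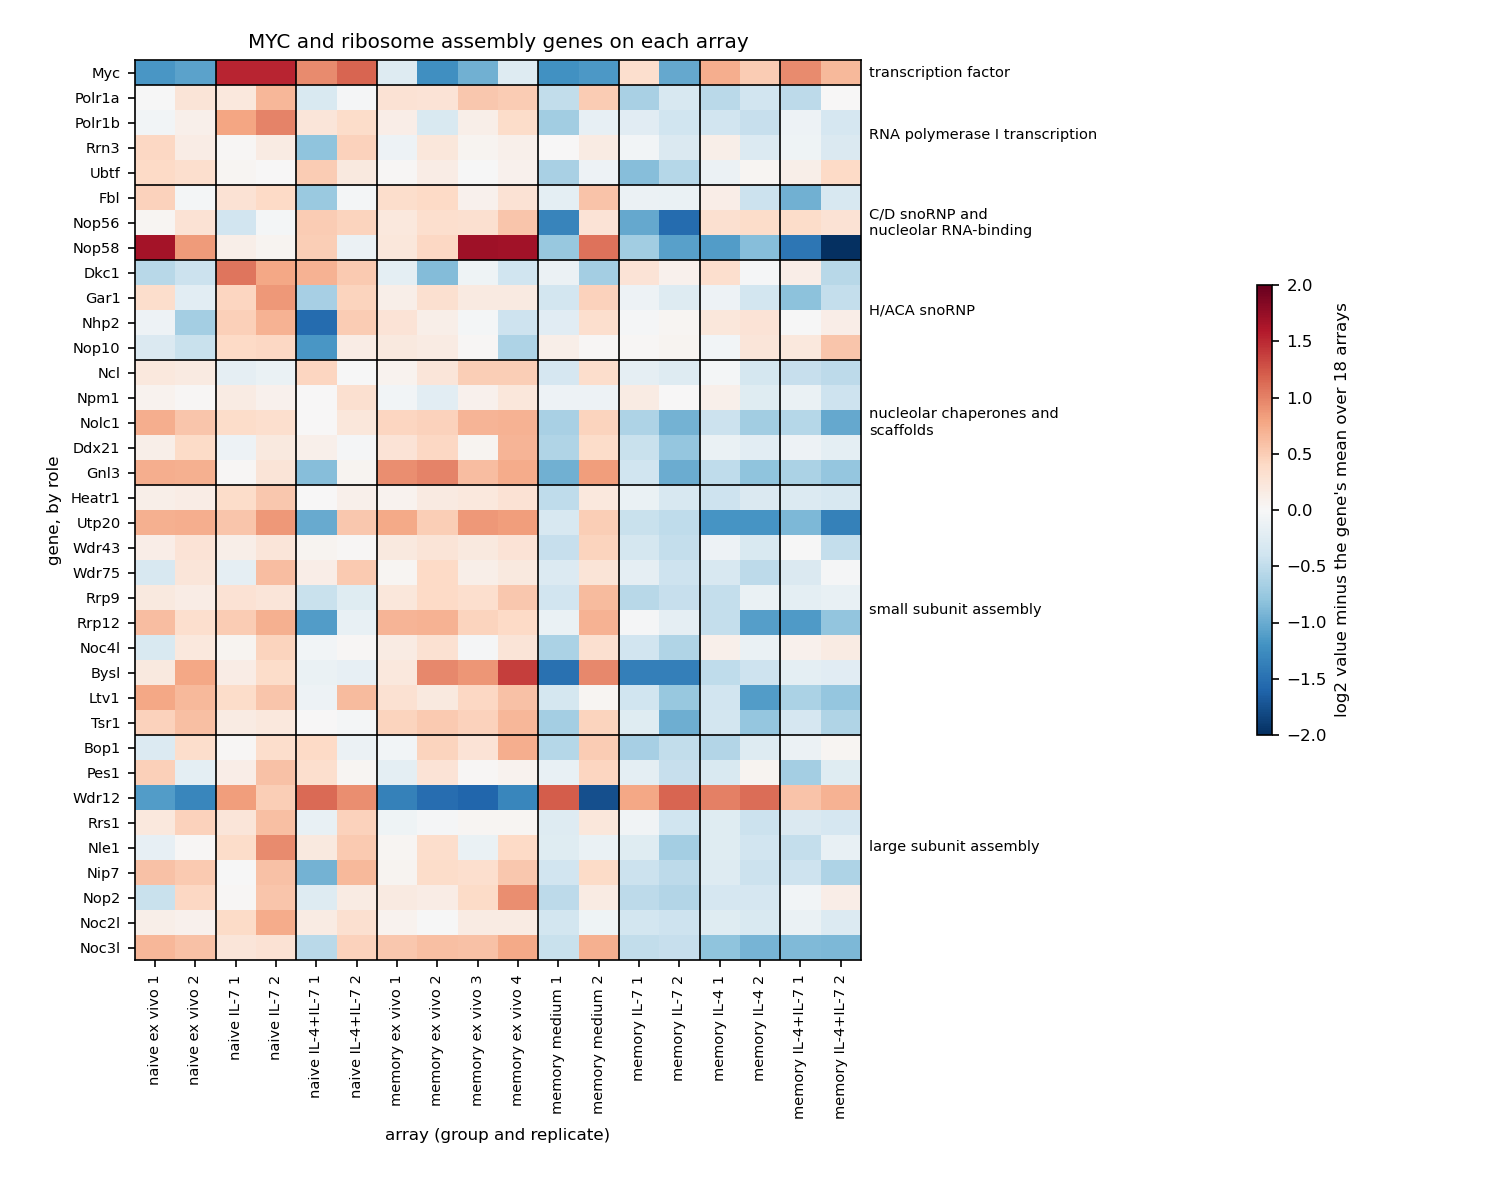
Log2 value of each of the 36 genes (rows, by role) on each of the 18 arrays (columns), minus the gene's mean over all arrays, with the colour scale ending at 2 in either direction. Most assembly factors are blue on the cultured memory arrays other than medium array 2, Myc is red on the naive cultures, and Wdr12 is blue ex vivo and red in culture, again except on medium array 2.

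Myc (probe set 1424942_a_at, chr15:61985341-61990361) rose in naive cells in both cultures and in memory cells cultured with IL-4. Ex vivo its log2 value was 7.55 and 7.64 in naive cells and 8.45, 7.48, 7.75 and 8.46 in memory cells. It was 10.24 on both arrays of naive cells with IL-7, and 9.66 and 9.87 with IL-7 and IL-4. All 4 cultured naive arrays lay above all 6 ex vivo arrays. In memory cells it was 9.44 and 9.22 with IL-4, and 9.65 and 9.36 with IL-4 and IL-7, again above every ex vivo array. With IL-7 alone the memory arrays disagreed, at 9.05 and 7.69, and in medium they were at 7.50 and 7.57, within the range of the ex vivo arrays. The order of group means ran from medium (7.54) and ex vivo naive (7.59) through ex vivo memory (8.03) and memory with IL-7 (8.37) to memory with IL-4 (9.33), memory with both (9.51), naive with both (9.77) and naive with IL-7 (10.24). The arrays of neighbouring groups up to memory with IL-7 overlapped, as did the 2 IL-4 memory groups.

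**Figure D2:**
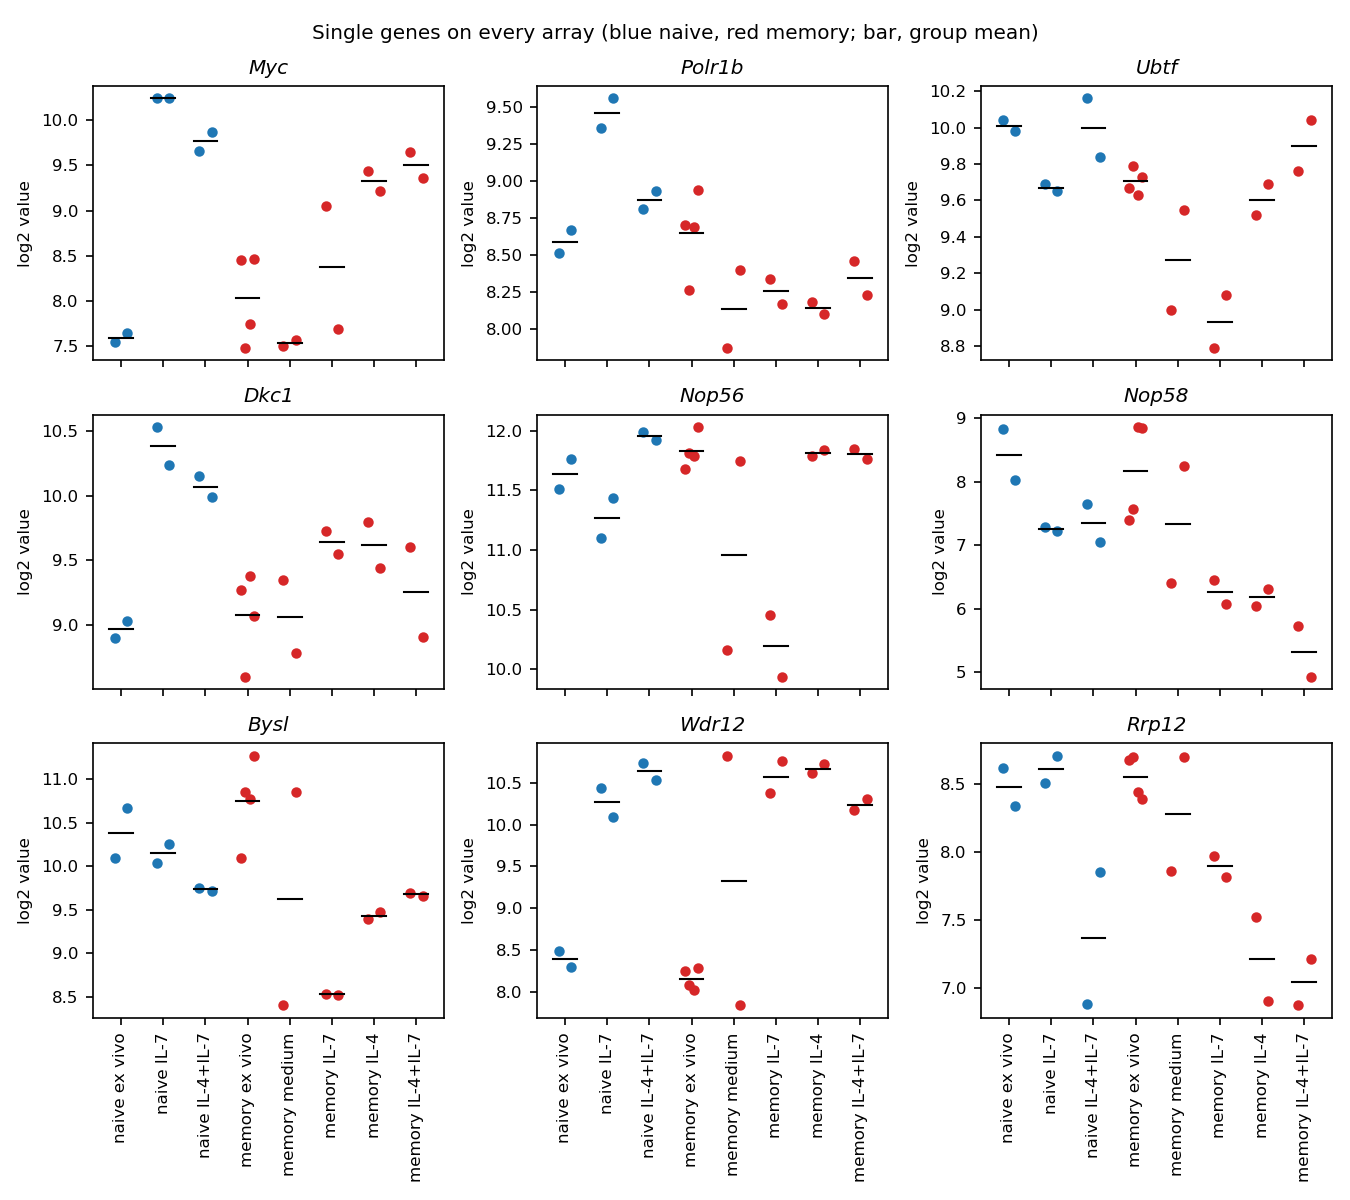
Log2 values of 9 of the genes on every array (points, blue naive and red memory) with the group mean (bar), by group; each panel has its own scale. Myc is highest in naive cells with IL-7, Nop56 and Ubtf are low in memory cells cultured without IL-4 except on medium array 2, and Wdr12 separates ex vivo from cultured arrays except medium array 2.

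In naive cells cultured with IL-7, Myc, Polr1b and Dkc1 rose against ex vivo naive cells, and none of the 36 genes fell. Myc rose 6.25-fold (log2 change 2.64, SE 0.37, adjusted p = 0.00155). Dkc1, the pseudouridine synthase of H/ACA snoRNPs (1438016_at, chrX:75095854-75109776), went from 8.90 and 9.03 to 10.53 and 10.24. That is a 2.68-fold rise (log2 change 1.42, SE 0.28, adjusted p = 0.00721), and its other probe sets changed by 1.61 and 1.52. Polr1b, the second-largest subunit of RNA polymerase I (1416126_at, chr2:129100970-129128060), went from 8.51 and 8.67 to 9.36 and 9.56, 1.83-fold higher (log2 change 0.87, SE 0.22, adjusted p = 0.021). The cultured arrays did not overlap the ex vivo arrays in any of the 3. All p-values here are from limma's moderated test over the 13770 genes with Benjamini-Hochberg adjustment, and a gene was called at an adjusted p under 0.05. The 3 calls among 36 stand beside 7% of all genes called higher and 5.8% called lower, and the median change of the 36 was 0.11 against 0.07 over all genes. Wdr12 changed by 1.87 with an adjusted p of 0.0508. Polr1b was no longer called with any 1 of the 4 arrays left out (adjusted p = 0.0581 to 0.158), nor was Dkc1 without naive IL-7 array 1 (adjusted p = 0.0542). Without medium array 2, which enters only the shared estimate of the spread, 6 genes were called higher, beside 12.2% of all genes. Wdr12 (adjusted p = 1.54e-05), Nle1 (0.0438) and Noc2l (0.0446) were added.

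With IL-7 and IL-4 together, naive cells again showed higher Myc (4.51-fold, log2 change 2.17, SE 0.37, adjusted p = 0.00241) and Dkc1 (log2 change 1.11, SE 0.28, adjusted p = 0.018), and in addition higher Wdr12 and lower Rrp12. Wdr12, part of the PeBoW complex of large subunit assembly, went from 8.49 and 8.30 to 10.74 and 10.53 (log2 change 2.24, SE 0.59, adjusted p = 0.0215). Rrp12, a factor of small subunit maturation and export, went from 8.62 and 8.34 to 6.88 and 7.85 (log2 change -1.12, SE 0.32, adjusted p = 0.0302). In this limma fit 3 of 36 genes were called higher and 1 lower, beside 8.9% and 5.85% of all genes, and the median of the 36 was -0.15 against 0.05. Wdr12, Rrp12 and Dkc1 depended on single arrays. Dkc1 was not called without ex vivo naive array 1 (adjusted p = 0.0929), ex vivo naive array 2 (0.075) or array 1 of this culture (0.0883). Wdr12 had an adjusted p of 0.0515 to 0.113 with any 1 of the 4 arrays left out. Without naive array 1 of this culture the change in Rrp12 was -0.63. More of the 36 genes were called without array 2 of this culture, and fewer without array 1 or either ex vivo naive array. The shares of all genes called in these fits are not given here, so this is not a result about the 36 genes. There were 6 calls without medium array 2, when 21.7% of all genes were called, with Gnl3 (-1.11) and Rrp9 (-0.51) added among those lower. Where 1 array stands for a group, it is assumed to vary like the arrays of the other groups.

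In memory cells cultured with IL-7, 18 of the 36 genes fell against ex vivo memory cells and Wdr12 rose, while Myc did not pass the test. The 4 ex vivo and 2 cultured arrays of Bysl, a factor of small subunit assembly (1422767_at, chr17:47599331-47611492), were at 10.10, 10.85, 10.77 and 11.27 against 8.53 and 8.52. It fell 4.67-fold (log2 change -2.22, SE 0.47, adjusted p = 0.00797). Nop58 and Nop56, core proteins of the C/D snoRNPs that guide ribosomal RNA methylation, also fell. Nop56 (1455035_s_at, chr2:130274367-130279313) was at 11.68 to 12.03 ex vivo and at 10.46 and 9.94 in culture, 3.09-fold lower (log2 change -1.63, SE 0.31, adjusted p = 0.00585). Nop58 (1450986_at, chr1:59684961-59711510) was at 7.39, 7.57, 8.86 and 8.85 ex vivo and at 6.46 and 6.08 in culture (log2 change -1.90, SE 0.50, adjusted p = 0.0192). In all 3 genes both cultured arrays lay below every ex vivo array. Wdr12 (1448646_at, chr1:60071361-60098500) went the other way, from between 8.02 and 8.29 ex vivo to 10.38 and 10.76, 5.30-fold higher (log2 change 2.41, SE 0.51, adjusted p = 0.00813). Myc changed by 0.34 (SE 0.32, adjusted p = 0.486), and by -0.34 without memory IL-7 array 1.

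By role, no H/ACA protein passed the test, and differences between roles were not tested. Of the 4 RNA polymerase I genes, Polr1a, the largest subunit (-0.89), and Ubtf, which binds the ribosomal DNA promoter (-0.77), fell, while Polr1b (-0.39) and Rrn3 (-0.23) did not pass. Of the C/D proteins Fbl, the methyltransferase, did not pass (-0.42). Among the H/ACA proteins the log2 change was 0.56 for Dkc1, -0.38 for Gar1, 0.03 for Nhp2 and 0.10 for Nop10. Of the nucleolar chaperones and scaffolds, Gnl3 (-1.52), Nolc1 (-1.35) and the helicase Ddx21 (-0.96) fell, and Ncl (-0.55) and Npm1 (0.07) did not pass. Of the 10 small subunit factors, Bysl, Utp20 (-1.22), Tsr1 (-1.14), Ltv1 (-0.95), Rrp9 (-0.88) and Wdr43 (-0.64) fell, and Heatr1 (-0.43), Wdr75 (-0.49), Rrp12 (-0.66) and Noc4l (-0.66) did not pass. Of the 9 large subunit factors, Noc3l (-1.10), Nop2 (-0.97), Bop1 (-0.93), Nle1 (-0.62) and Noc2l (-0.50) fell, and Pes1 (-0.37), Rrs1 (-0.23) and Nip7 (-0.80) did not pass. Wdr12 works in a complex with Bop1 and Pes1, so that 1 of these 3 partners rose, 1 fell and 1 did not pass.

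The 18 lower and 1 higher of 36 stand beside 8.85% of all genes called lower and 11.1% called higher, and the median change of the 36 was -0.65 against -0.05 over all genes. In memory cells with IL-7 against ex vivo the count rests on both IL-7 arrays: without either, no member was called, when 54 or 3 of all genes were, and Bysl had an adjusted p of 0.0747 or 0.0778. There were 22 calls without medium array 2, when 26.9% of all genes were called in either direction. With the mean of a gene's probe sets, Polr1a (-0.37, adjusted p = 0.0787), Ubtf (-0.32, 0.167), Noc3l (-0.55, 0.13), Noc2l (-0.37, 0.259) and Bop1 (-0.64, 0.0749) were not called. Nle1 was not called without the filter (adjusted p = 0.0513), with centred arrays (0.059) or with an intensity trend (0.0548). With a term for the replicate number in the limma model, most of the calls were lost. Among them were Nop58 (adjusted p = 0.119), Utp20 (0.0718), Tsr1 (0.0663) and Gnl3 (0.0521). That model rests on ex vivo memory arrays 1 and 2 only. Other genes moved in the same comparison that mark other cells or dividing cells. Of 5 B cell markers Ms4a1 (-1.43) fell, to a group mean of 3.42, below the value of the filter. The mean of Cd79b was 7.76 ex vivo and 8.39 with IL-7, and those of Cd79a, Pax5 and Cd22 were lower with IL-7. Of 7 tested myeloid markers Tyrobp (-1.24) and Cd68 (-1.16) fell. Means of Csf1r (5.81 and 5.84) and Cd14 (4.63 and 4.65) were not lower with IL-7, while those of Lyz2, Adgre1 and Fcer1g were. In naive cells Cd68 was also lower with IL-7 (5.39) than ex vivo (6.35). The 22 tested genes of a proliferation list had 6 that fell, with Aurka (-1.98), Cdc6 (-1.35) and Top2a (-1.31) in front. The mean of the B cell markers was 5.40 to 5.97 on ex vivo memory and 5.18 to 5.66 on cultured memory arrays, and that of the myeloid markers 4.75 to 5.04 and 4.43 to 4.66. The part of these in the change of the 36 genes was not tested.

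In memory cells cultured with IL-4, Myc and Wdr12 rose and 11 of the 36 genes fell. Myc rose 2.46-fold (log2 change 1.30, SE 0.32, adjusted p = 0.0121). Wdr12, at 10.61 and 10.72, rose 5.67-fold (log2 change 2.50, SE 0.51, adjusted p = 0.00429). Utp20, a large scaffold of the small subunit processome, went from between 9.59 and 9.97 ex vivo to 7.92 on both arrays (log2 change -1.92, SE 0.32, adjusted p = 0.00159). Nop58 fell by 1.98 on the log2 scale, to 6.05 and 6.31 (adjusted p = 0.0133). Noc3l, Gnl3, Rrp12, Nolc1, Ltv1, Tsr1, Polr1a, Rrp9 and Heatr1 also fell, by 1.49 (Noc3l) to 0.55 (Heatr1) on the log2 scale. Nop56 was not lower here, with 11.79 and 11.84 against 11.68 to 12.03 ex vivo (log2 change -0.01, adjusted p = 0.983). The 2 higher and 11 lower calls stand beside 12.2% and 8.5% of all genes, and the median of the 36 was -0.51 against 0.02. Myc was not called without IL-4 array 1 (1.19, adjusted p = 0.115) or array 2 (1.41, 0.0708), nor was Wdr12 without array 2 (2.45, 0.0538). With the mean of a gene's probe sets Heatr1 (-0.43, adjusted p = 0.0863) and Polr1a (-0.39, 0.0608) were not called. Fewer of the 36 genes were called without either IL-4 array. Without medium array 2 there were 20 calls, when 26.5% of all genes were called in either direction.

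With IL-4 and IL-7 together, the memory cells gave the same numbers, 2 higher and 11 lower of 36, beside 13.4% and 9.38% of all genes, with a median of -0.48 against 0.05. Myc rose 2.78-fold (log2 change 1.47, SE 0.32, adjusted p = 0.00568) and Wdr12 4.21-fold (adjusted p = 0.0104). Nop58 fell 7.15-fold, to 5.72 and 4.93 (log2 change -2.84, SE 0.50, adjusted p = 0.00179). Utp20 (-1.87), Gnl3 (-1.53), Noc3l (-1.52), Rrp12 (-1.51), Nolc1 (-1.36), Ltv1 and Tsr1 fell as well, and so did Fbl (-0.93), Gar1 (-0.85) and Ncl (-0.82). Gar1 was not called with any 1 array of the compared groups left out (adjusted p = 0.0678 to 0.277), without the filter (0.0584) or with centred arrays (0.0575). Fbl was not called without array 1 of this culture (-0.60, adjusted p = 0.247), nor was Ncl without array 1 or 2 (0.0518 and 0.0895). Myc was not called without array 1 of this culture (1.32, adjusted p = 0.0606), nor was Wdr12 without either array (0.0583 and 0.0955). Nop56 was at 11.85 and 11.76 (log2 change -0.02, adjusted p = 0.973). Fewer of the 36 genes were called without either array of this culture. Without medium array 2 there were 19 calls, when 28% of all genes were called in either direction. These 3 memory cultures share the 4 ex vivo arrays, so they are not independent of each other.

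In medium alone, no member passed against ex vivo memory cells in limma (0% of all genes did). At an unadjusted p under 0.05 there were 10 of 36, and 1364 of 13770. Wdr12 was at 10.82 on array 1 and 7.84 on array 2, Bysl at 8.40 and 10.85, and Gnl3 at 9.35 and 11.15. Array 2 lay in or near the ex vivo range in each of these genes. Array 1 lay with or near the cytokine cultures in Wdr12 and Gnl3. In Bysl it lay near the IL-7 arrays (8.53 and 8.52) and below all memory arrays with IL-4 (9.39 to 9.69). The group differences were 1.16, -1.12 and -0.89, and that of Myc -0.50. Without array 2, Wdr12 alone was higher and 17 genes were lower, beside 10.8% and 5.61% of all genes, with array 1 assumed to vary like the arrays of the other groups. Wdr12 then differed by 2.65 (adjusted p = 3.1e-06), Bysl by -2.35 (0.000226), Gnl3 by -1.79 (0.000979), Nop58 by -1.75 (0.0333), Nop56 by -1.67 (0.00018) and Nolc1 by -1.22 (0.00156).

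**Figure D3:**
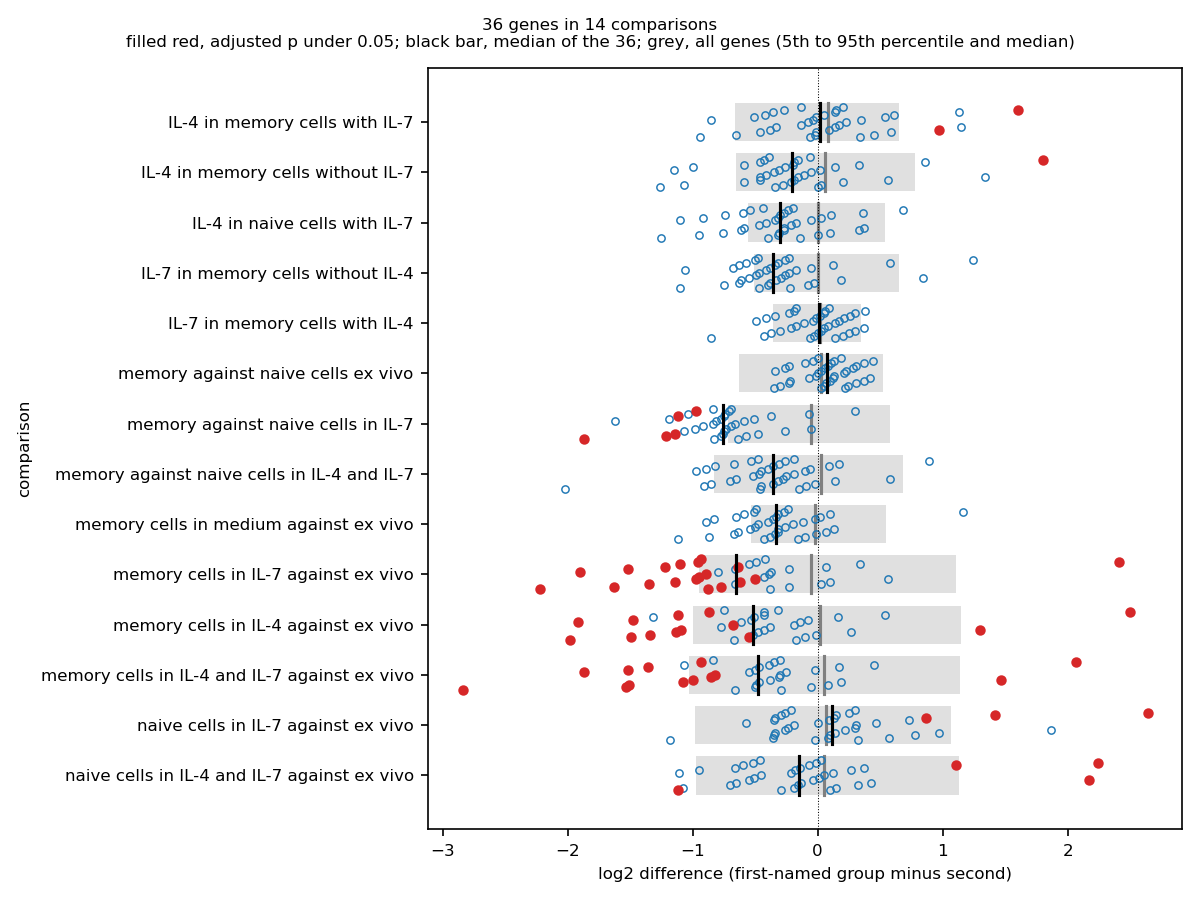
Log2 difference of each of the 36 genes (points, filled red when adjusted p was under 0.05) in the 14 comparisons, with the median of the 36 (black bar) and the 5th to 95th percentile and median of all 13770 genes (grey). The medians are -0.65, -0.51 and -0.48 in the 3 cytokine cultures of memory cells against ex vivo, and 0.11 in naive cells with IL-7.

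Between memory and naive cells none of the 36 genes was called ex vivo and 5 were called in IL-7. Ex vivo, no member passed in limma, beside 1.93% of all genes, and none had an unadjusted p under 0.05. The differences ran from -0.35 to 0.44, with the 3 of greatest size in Myc (0.44, adjusted p = 0.492), Nop2 (0.42) and Bysl (0.37), and a median of 0.08 against 0.03. In IL-7, 5 of the 36 genes were lower in memory cells and none higher, beside 1.43% of all genes lower and 1.27% higher. Both memory arrays lay below both naive arrays in 33 of the 36 genes, as they did in 32.3% of all genes. The median difference was -0.75 against -0.05.

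The genes lower in memory cells in IL-7 were Myc, Polr1b, Nolc1, Nle1 and Noc2l. Myc, at 9.05 and 7.69 against 10.24 and 10.24, was 3.65-fold lower (log2 difference -1.87, SE 0.37, adjusted p = 0.0138). Polr1b was at 8.34 and 8.17 against 9.36 and 9.56, 2.31-fold lower (log2 difference -1.21, SE 0.22, adjusted p = 0.00709). Nolc1, a scaffold that binds snoRNPs, was at 8.32 and 7.99 against 9.31 and 9.27 (log2 difference -1.14, SE 0.28, adjusted p = 0.0428). Nle1 and Noc2l work on the large subunit. Nle1 was at 7.15 and 6.71 against 7.76 and 8.33 (-1.12, SE 0.24, adjusted p = 0.0196), and Noc2l at 9.28 and 9.23 against 10.04 and 10.40 (-0.97, SE 0.16, adjusted p = 0.00405). None of the 5 overlapped. Myc was not called without naive array 1 (adjusted p = 0.0794), naive array 2 (0.113) or memory array 2 (-1.19, adjusted p = 0.188). Nolc1 was not called with any 1 of the 4 arrays left out (adjusted p = 0.126 to 0.32), and the other 3 were not without naive array 2 (Nle1 0.285, Polr1b 0.0987, Noc2l 0.077) or without memory array 2 (0.244, 0.102 and 0.0624). With the mean of a gene's probe sets neither Nolc1 (-0.83, adjusted p = 0.116) nor Noc2l (-0.59, adjusted p = 0.31) was called. Bysl had a greater difference but also a greater error (-1.62, SE 0.54, adjusted p = 0.155), and only Wdr12 was on the higher side (0.30). The count in IL-7 fell without naive array 1, naive array 2 or memory array 2. Without medium array 2 it was 14, all lower, beside 2.63% of all genes called lower. Bysl (adjusted p = 0.00323), Nop56 (0.00428), Heatr1 (0.0118), Rrp9 (0.0118), Ubtf (0.0197), Polr1a (0.0247), Ltv1 (0.0311), Tsr1 (0.0467) and Noc4l (0.0482) were added.

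**Figure D4:**
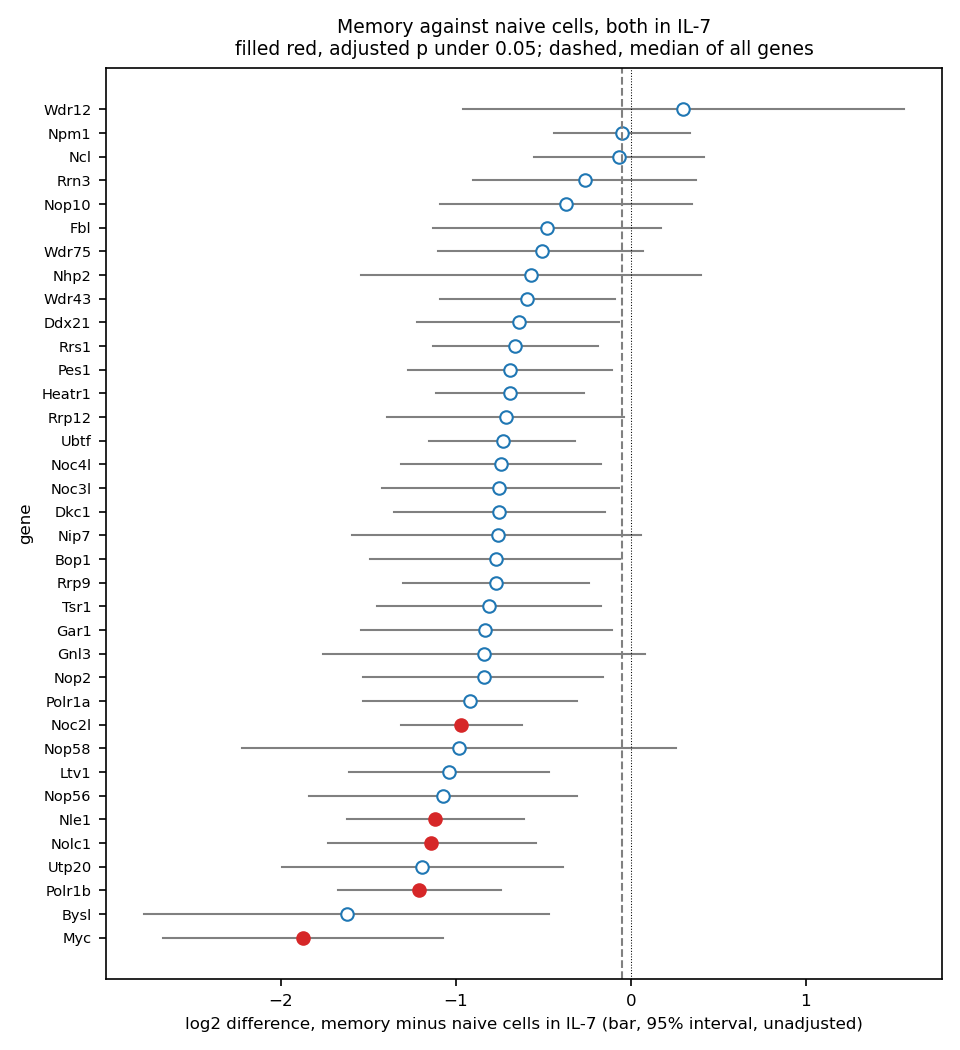
Log2 difference of memory minus naive cells, both cultured with IL-7, for each of the 36 genes (point, filled red when adjusted p was under 0.05) with its unadjusted 95% interval; the dashed line is the median of all genes (-0.05). Of the 36 genes, 35 lie below 0, with Myc lowest at -1.87, and Wdr12 lies at 0.30.

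The change from ex vivo to IL-7 was also set directly between the cell types. No member passed this test of the difference in limma, beside 0.0508% of all genes. The difference in the response of Myc, memory minus naive, was -2.31 (SE 0.49, 95% interval -3.36 to -1.25, adjusted p = 0.104), that of Bysl -1.99 and that of Nle1 -1.35 (adjusted p = 0.141). The median was -0.79 against -0.09 over all genes. Myc, Bysl, Nop56, Polr1b, Noc2l and Rrp9 passed without medium array 2. The share of all genes passing in that fit is not given here, so these genes are not set apart from all genes. Without memory IL-7 array 1 the difference in Myc was -2.98. With both cytokines in the culture, memory and naive cells showed no called member, beside 3.81% of all genes. Nop58 was at 5.72 and 4.93 in memory against 7.65 and 7.05 in naive cells (log2 difference -2.02, SE 0.58, adjusted p = 0.0673), Ltv1 differed by -0.97 (adjusted p = 0.0566), Nolc1 by -0.91 (adjusted p = 0.0809) and Myc by -0.26. The median was -0.36 against 0.03. Nop58, Ncl, Nolc1, Ltv1 and Noc3l, 5 in all, were called lower without medium array 2, beside 4.64% of all genes. The direction of the calls depended on the naive array left out, lower without naive array 1 and higher without naive array 2.

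IL-4 added to IL-7 in memory cells raised Nop56 and Ubtf among the 36 genes. Nop56 was at 11.85 and 11.76 with both cytokines against 10.46 and 9.94 with IL-7, 3.04-fold higher (log2 difference 1.60, SE 0.36, adjusted p = 0.0332). Ubtf (1453097_a_at, chr11:102304560-102323649) was at 9.76 and 10.04 against 8.79 and 9.08, 1.95-fold higher (log2 difference 0.97, SE 0.19, adjusted p = 0.0185). The groups did not overlap in either gene. The 2 higher and 0 lower calls stand beside 1.21% and 0.595% of all genes, and the median was 0.02 against 0.08. Myc differed by 1.13 (SE 0.37, adjusted p = 0.162), and by 1.81 (adjusted p = 0.0339) without memory IL-7 array 1, its high array. Bysl differed by 1.15 (adjusted p = 0.355) and Nop58 by -0.94 (adjusted p = 0.485). Nop56 was no longer called with any 1 of the 4 arrays left out (adjusted p = 0.097 to 0.272), nor was Ubtf without array 2 of both cytokines (0.195), IL-7 array 1 (0.228) or IL-7 array 2 (0.0629). The other probe set of Nop56 differed by 1.53 and that of Ubtf by 0.04. With the mean of a gene's probe sets neither was called, at 1.56 for Nop56 (adjusted p = 0.0581) and 0.50 for Ubtf (0.211). Without medium array 2 both were called, with Bysl (adjusted p = 0.0353) added, beside 2.21% of all genes called higher.

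IL-4 against medium alone in memory cells raised Myc, the 1 member called. Myc was at 9.44 and 9.22 with IL-4 against 7.50 and 7.57 in medium, 3.48-fold higher (log2 difference 1.80, SE 0.37, adjusted p = 0.023). This stands beside 1.26% of all genes called higher and 0.675% called lower, and the median of the 36 was -0.20 against 0.06. Wdr12 (1.34, adjusted p = 0.334), Utp20 (-1.26, adjusted p = 0.121), Nop58 (-1.15, adjusted p = 0.419) and Rrp12 (-1.07, adjusted p = 0.121) did not pass. Myc did not pass without IL-4 array 1 (adjusted p = 0.19), IL-4 array 2 (0.116) or medium array 2 (1.84, adjusted p = 0.0698). Without medium array 2 the 1 member called was Nop56, at 11.79 and 11.84 against 10.16 on medium array 1 (log2 difference 1.66, SE 0.24, adjusted p = 0.00166). Without medium array 1, which leaves the array that went against its label, the median of the 36 was -0.56 against 0.09 over all genes.

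In naive cells IL-4 added to IL-7 gave no call in limma, beside 1.26% of all genes, with a median of -0.30 against 0.00. Rrp12 differed by -1.25 (SE 0.32, adjusted p = 0.0843), Nhp2 by -1.10 (adjusted p = 0.478), Utp20 by -0.95 (adjusted p = 0.435) and Myc by -0.47 (95% interval -1.27 to 0.33). Array 1 of naive cells with both cytokines was the lower in Rrp12, Nhp2 and Utp20, and members were called lower when array 2 was left out. Rrp12 was called lower without medium array 2 (adjusted p = 0.0309), as were 0.712% of all genes. The response to IL-4 in memory minus that in naive cells, both with IL-7, passed for no member, beside 0.0726% of all genes. Its median was 0.37 against 0.08. For Myc the difference was 1.60 (SE 0.53, 95% interval 0.47 to 2.73, adjusted p = 0.365). Members were called higher when array 2 of naive cells with both cytokines was left out.

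IL-7 in memory cells gave no called member against medium or when added to IL-4, and 0% of all genes passed in either limma fit. Against medium, 3 of 36 members and 804 of all genes had an unadjusted p under 0.05. Wdr12 differed by 1.24, Bysl by -1.10, Nop58 by -1.06 and Myc by 0.84 (adjusted p = 0.723), with a median of -0.36 against 0.00. Members were called without medium array 1, which leaves the array that went against its label. Without medium array 2 the median was 0.01 against -0.04. Added to IL-4, IL-7 gave 0 members and 286 genes at an unadjusted p under 0.05. Nop58 differed by -0.85, Fbl by -0.49, Wdr12 by -0.43 and Myc by 0.17, with a median of 0.01 against 0.02. The difference between these 2 effects, which is the interaction of the cytokines, passed for no gene (0%), with 3 of 36 members and 650 of all genes at an unadjusted p under 0.05. It was -1.67 for Wdr12 and -0.66 for Myc, and members were called in it without medium array 1, which leaves the array that went against its label.

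Other genes of the pathway were read from lists, and their counts stand beside the shares of all genes called: 11.1% higher and 8.85% lower in memory cells with IL-7 against ex vivo, 13.4% and 9.38% with both cytokines, 7% and 5.8% in naive cells with IL-7, and 1.27% and 1.43% between memory and naive cells in IL-7. Of 40 tested genes that MYC is known to raise outside the nucleolus, none rose and 16 fell in memory cells with IL-7 against ex vivo (median -0.63). Hk2, which starts glycolysis, fell by 2.91, Odc1, the first enzyme of polyamine synthesis, by 2.50, and Slc7a5, an amino acid transporter, by 2.50 on the log2 scale. In naive cells with IL-7, 5 rose and none fell (median 0.21), with Srm, spermidine synthase, at 1.65, Shmt2, a mitochondrial one-carbon enzyme, at 1.38 and the cell cycle kinase Cdk4 at 1.13. Between memory and naive cells in IL-7, 10 were lower and none higher (median -0.79), with Slc7a5 (-2.71), Shmt2 (-2.33) and Srm (-2.32) in front. Of 20 genes of the MYC network, Mxd1, a MYC antagonist, fell in memory (-2.54) and in naive cells (-2.49) with IL-7. Max, the partner of MYC, fell in memory cells with IL-7 (-1.21), and so did Mnt (-0.54), while Usp28 (1.41) and Mga (1.01) rose there. Ruvbl2 (1.56) and Ruvbl1 (0.96), cofactors of MYC, rose in naive cells with IL-7.

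Assembly factors outside the 36 also had negative medians in memory cells. Of 55 further small subunit factors, 1 rose and 15 fell in memory cells with IL-7 (median -0.36), with Utp14b (-1.93) and Rbm19 (-1.21) in front, and 22 fell with both cytokines (median -0.46). Of 55 further large subunit factors, 1 rose and 12 fell with IL-7 (median -0.32), with Rrp15 (-1.47) and Ppan (-1.38) in front. Of 28 further snoRNP and processing genes 5 rose and 5 fell in memory cells with IL-7, and 7 rose and 1 fell in naive cells with IL-7. Of 16 further RNA polymerase I genes, Mybbp1a fell (-1.34) in memory cells with IL-7 and Ttf1 (1.02) and Taf1a (0.49) rose. Tcof1, which assists polymerase I, was 1 of the genes of this list and rose when IL-4 was added to IL-7 in memory cells (1.11, SE 0.19, adjusted p = 0.00716), beside 1.21% of all genes called higher. Of 43 cytosolic ribosomal proteins, the parts of the finished ribosome, none rose and 2 fell in memory cells with IL-7, Rps6 (-0.77) and Rps25 (-0.52), and none passed in naive cells with IL-7 (median 0.00).

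**Figure D5:**
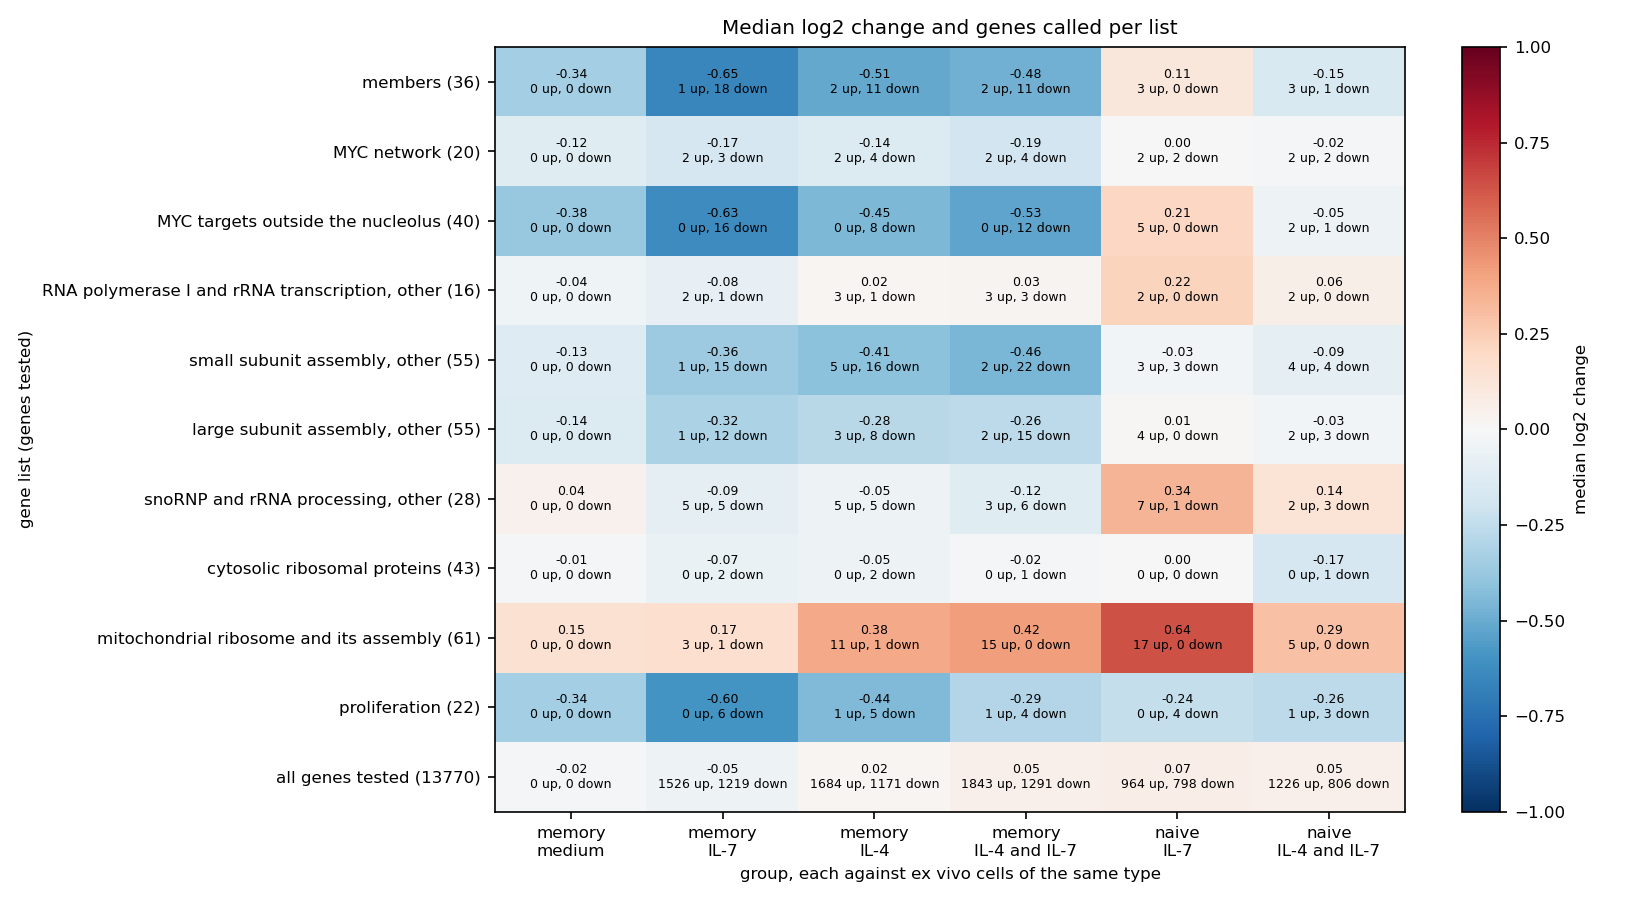
Median log2 change (colour and upper number) and genes called higher and lower (lower line) for the 36 genes, 9 further lists and all genes tested, in each cultured group against ex vivo cells of the same type. In memory cells with IL-7 the medians are -0.65 for the 36 genes and -0.07 for cytosolic ribosomal proteins, and in naive cells with IL-7 0.64 for mitochondrial ribosomal genes.

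For 24 of the 36 genes the arrays hold 31 other probe sets, and these gave a second reading of the same RNA. In memory cells with IL-7 against ex vivo, 27 of the 31 had the sign of the brightest probe set, with IL-4 30, and with both 31. The figure was 22 in naive cells with IL-7, 20 in naive cells with both, 28 between memory and naive cells in IL-7, 30 for IL-4 against medium in memory cells, and 20 for IL-4 added to IL-7 in memory cells. For memory cells with IL-7, the other probe set gave 2.86 for Wdr12, -2.04 for Bysl and -1.97 for Nop56, near the values of the brightest, and 0.13 for Ubtf, against -0.77.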

How the data were processed

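RNA of 18 samples was amplified, per the labels' protocols, and read on Affymetrix mouse arrays. The deposited values are log2 values, 1 per probe set and array, made by the authors with RMA; the submitters' processing notes name RMA and limma, without versions. The table holds 45101 probe sets, of which 34958 had 1 gene symbol, 932 several and 9211 none. Groups were taken from the labels. The brightest probe set with 1 symbol stood for a gene. A gene was tested if at least 2 arrays exceeded 4.06, the 40th percentile of the table, which left out 4424 genes; the background of a probe set is not known, and the number of arrays limits the precision. One limma (version 3.58.1, R 4.3.3) model with a mean per group was fitted to all 18 arrays, with no block (10 residual and 4.13 prior degrees of freedom), and p-values were Benjamini-Hochberg adjusted over 13770 genes. The script was checked on simulated data. Intervals are unadjusted. Promoter and gene positions are RefSeq's (GRCm38.p6). Named genes are Myc, the members called or, of more than 6, those with the greatest changes, and where none passed the 3 with the greatest change; of further lists, up to 3 per direction; other members were given by role. Members and lists were chosen with earlier results of these data known. Alternatives were the mean of all probe sets, no filter, only the compared arrays, centred arrays, an intensity trend, a replicate block, another promoter window and each array left out. Figures were drawn with matplotlib 3.10.9.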

Additional observations from a re-analysis of the deposited data

How the results depend on the processing

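Counts of members called were within 1.5 times of those reported in all 17 comparisons without the filter, with centred arrays and with an intensity trend. With the mean of all probe sets this held in 16, the exception being IL-4 added to IL-7 in memory cells (0, reported 2). With only the arrays of the compared groups, 4 were called for IL-4 added to IL-7 in memory cells, 0 for IL-4 against medium (reported 1), 21 for memory against naive cells in IL-7 (reported 5), 7 for naive cells in IL-7 against ex vivo (reported 3) and 3 for the difference between cell types in the response to IL-7 culture (reported 0). Calls over all 13770 genes moved as well with only the compared arrays. They were 1035 for IL-4 added to IL-7 in memory cells (249 in the reported model) and 9 for IL-4 against medium (267). For the other comparisons named here the calls over all genes are not given, so their counts are not set apart from all genes. The causes were not tested.

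Replicate numbers are shared between groups, but no label says that they pair samples. Deviations of same-numbered arrays from their group means had correlations of -0.125 to 0.511 in naive and -0.029 to 0.447 in memory cells. Between cytokine cultures all were positive, at 0.511 in naive cells and 0.435, 0.447 and 0.251 in memory cells. The lowest involved ex vivo cells or medium, whose array 2 went against its label. Both memory arrays with both cytokines were closest to the same-numbered IL-4 array (r = 0.9939 and 0.9933, against 0.99 to each other). Pairing can therefore be neither assumed nor set aside. With a replicate block, in which ex vivo memory cells rest on arrays 1 and 2, counts were 1 for IL-4 added to IL-7 in memory cells, 2 for memory against naive cells with both cytokines (reported 0), and 6, 7 and 8 for memory cells with IL-7, IL-4 and both against ex vivo (reported 19, 13 and 13); the other 12 moved by less.

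With arrays left out in turn, counts ranged from 0 to 3 for IL-4 added to IL-7 and 0 to 14 for IL-4 against medium in memory cells, 0 to 7 for IL-4 in naive cells, and 0 to 14 for IL-7 against medium. They ranged from 0 to 14 for memory against naive cells in IL-7 and 0 to 5 with both cytokines. Against ex vivo they ranged from 0 to 18 for memory cells in medium, 0 to 22 with IL-7, 2 to 20 with IL-4 and 7 to 19 with both, and from 2 to 6 for naive cells with IL-7 and 1 to 8 with both. For the 3 differences of differences they ranged from 0 to 2 (IL-4, memory minus naive), 0 to 9 (interaction) and 0 to 6 (IL-7 culture, memory minus naive). They stayed at 0 for IL-7 added to IL-4 and for memory against naive cells ex vivo. Where these counts moved, the calls over all genes moved as well, and their shares are not given beside them here. The ranges are therefore not a result about the members. The highest counts for IL-4 and for IL-7 against medium, and for the interaction, came without medium array 1, which leaves the array that went against its label. The log2 change of Myc in memory cells with IL-7 against ex vivo was 0.34, and ranged from -0.34 without memory IL-7 array 1 to 1.02 without array 2. Its interaction was -0.66, and ranged from 0.01 without array 1 to -1.34 without array 2.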

Other observations

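Genes of the mitochondrial ribosome and its assembly had positive medians in every cultured group against ex vivo. In 2 groups the arrays overlapped the ex vivo range. The mean of these genes was 8.87 and 9.71 on the naive arrays with both cytokines, against 8.86 and 9.07 ex vivo. It was 9.09 and 9.34 in medium, which includes the array that went against its label, against 8.88 to 9.19 ex vivo. Of 61 tested, 17 rose and none fell in naive cells with IL-7 against ex vivo (median 0.64), with Mrps10 at 1.86, Mrpl39 at 1.51 and Mrpl34 at 1.25. In memory cells 3 rose and 1 fell with IL-7 (median 0.17), 11 rose and 1 fell with IL-4 (median 0.38), and 15 rose and none fell with both (median 0.42). In the same comparisons 7%, 11.1%, 12.2% and 13.4% of all genes were called higher and 5.8%, 8.85%, 8.5% and 9.38% lower, and the medians of all genes were 0.07, -0.05, 0.02 and 0.05. Between memory and naive cells in IL-7 none of the 61 passed the limma test (median -0.34). When IL-4 was added to IL-7 in memory cells, Mcm5, a replication helicase subunit, rose (1.02), and Bin1, a MYC-interacting protein (-1.28), Esf1, a small subunit factor (-1.87), and Sdad1, a large subunit factor (-1.27), fell, beside 1.21% of all genes called higher and 0.595% called lower.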
